A study of Mus musculus with 15 samples.

Results

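The 43 genes described here carry out the cell division cycle and DNA replication. They were taken as a given list of symbols and matched to the gene names of an expression table with 24493 genes, in which all 43 were found. All 43 also passed the filter on low values, a TPM of at least 1 in at least 3 libraries, as did 13905 genes of the table. TPM is a relative abundance corrected for transcript length. By role the genes are 3 regulators of the step from G1 into S phase, 14 genes of DNA replication and 26 genes of mitosis and cell separation. The replication genes are 9 of licensing and the helicase and 5 of the fork, nucleotide supply and methylation maintenance. The mitotic genes are 7 of mitotic entry, 8 of the kinetochore, passenger complex and checkpoint, 4 of the spindle, 5 of cytokinesis and 2 of chromosome structure.

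The study profiled liver cells sorted from mice by RNA sequencing, in 15 libraries that form 5 groups of 3. Untreated mice gave hepatocytes and biliary cells, and mice fed DDC gave hepatocytes, biliary cells and reprogrammed cells. Every mouse, controls included, had received AAV-TBG-Cre when 4 weeks old, a virus with Cre under a hepatocyte promoter used to mark hepatocytes and their descendants. DDC mice were switched to chow with DDC, a compound that damages bile ducts and the cells around them, at 5 weeks of age and stayed on it for 4 weeks before cell isolation, whereas the age of the untreated mice at isolation is not stated. Neither strain, sex nor the sorting markers are given, and the labels do not say whether the 3 libraries of a group come from separate animals, so p-values reflect no more than how far these libraries vary. Treatment and cell type both differ between reprogrammed cells and untreated hepatocytes, and reprogrammed cells were profiled from DDC mice only.

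A resting cell enters the cycle when cyclin D and cyclin E kinases inactivate the RB proteins and free the E2F factors, which turn on the genes of DNA replication. Cdc6 and Cdt1 then load the Mcm2 to Mcm7 helicase at origins, and after S phase a wave of genes led by the B-Myb and FoxM1 factors brings the cell through mitosis. Hepatocytes of an adult liver rarely divide but re-enter the cycle after injury, and they can finish S phase without dividing, which gives polyploid and binucleate cells. Biliary cells proliferate in the ductular reaction that follows bile duct injury.

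The promoters of the 2 waves differ in their letters, and 7 of them are shown to make the difference visible. RefSeq promoter windows on GRCm38.p6, from 250 bases before to 50 bases after the start, matched 35 of the 43 genes. Ccne2, Mcm4, Gins2, Ccna2, Foxm1, Aurkb, Tpx2 and Kif20a had no entry in that table. Each window was searched on both strands for CHR (TTTGAA or TTCGAA, the latter the same on both strands), the element of the late wave that is read by the MuvB complex. It was also searched for CCAAT, the box of the factor NF-Y (ATTGG on the opposite strand), and for E2F (TTTCCCGC, TTTCGCGC, TTTGCCGC or TTTGGCGC). The 7 stretches run from 160 bases before the start to 20 after it, 5′ to 3′ along the gene, with every match in capitals. Cdc20, Cdk1, Racgap1 and Kif23 are mitotic genes, Mcm6 and Mcm5 helicase genes and Ccne1 a G1/S regulator. They are examples of the contrast and do not represent every gene of their class. Of the mitotic genes, Ccnb1, Birc5, Nusap1 and Cenpe had no CHR match, while Mcm2 and Mcm7 of the helicase had one.
Cdc20, chr4:118437324-118437503, minus strand: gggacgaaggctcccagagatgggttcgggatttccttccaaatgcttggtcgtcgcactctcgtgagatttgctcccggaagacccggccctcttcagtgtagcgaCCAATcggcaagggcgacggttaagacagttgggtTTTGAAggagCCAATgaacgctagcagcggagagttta
Cdk1, chr10:69352893-69353072, minus strand: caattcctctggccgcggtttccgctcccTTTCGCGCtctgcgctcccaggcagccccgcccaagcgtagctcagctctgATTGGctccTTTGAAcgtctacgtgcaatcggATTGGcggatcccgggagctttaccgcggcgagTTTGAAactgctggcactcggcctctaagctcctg
Racgap1, chr15:99651637-99651816, minus strand: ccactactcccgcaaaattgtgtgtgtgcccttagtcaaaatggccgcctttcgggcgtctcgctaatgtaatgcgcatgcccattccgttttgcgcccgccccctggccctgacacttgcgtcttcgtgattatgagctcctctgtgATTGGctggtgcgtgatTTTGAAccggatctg
Kif23, chr9:61946780-61946959, minus strand: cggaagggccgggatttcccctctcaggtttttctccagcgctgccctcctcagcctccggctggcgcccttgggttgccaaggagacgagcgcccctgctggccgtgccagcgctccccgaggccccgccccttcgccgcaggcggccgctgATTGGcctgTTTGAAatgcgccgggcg
Mcm6, chr1:128359686-128359865, minus strand: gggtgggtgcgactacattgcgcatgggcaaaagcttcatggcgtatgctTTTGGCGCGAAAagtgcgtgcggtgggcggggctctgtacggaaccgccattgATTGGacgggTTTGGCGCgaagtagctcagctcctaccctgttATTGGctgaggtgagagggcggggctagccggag
Mcm5, chr8:75109349-75109528, plus strand: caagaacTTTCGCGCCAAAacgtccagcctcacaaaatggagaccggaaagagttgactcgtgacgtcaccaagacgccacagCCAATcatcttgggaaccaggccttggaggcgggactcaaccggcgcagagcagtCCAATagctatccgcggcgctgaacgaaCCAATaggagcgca
Ccne1, chr7:38107471-38107650, minus strand: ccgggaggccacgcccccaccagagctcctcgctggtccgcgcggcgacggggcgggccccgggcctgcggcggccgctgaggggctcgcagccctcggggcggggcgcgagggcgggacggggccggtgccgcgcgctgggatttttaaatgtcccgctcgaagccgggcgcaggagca
In Mcm6 and Mcm5 a capital stretch of 12 bases holds 2 overlapping E2F matches on opposite strands.

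Mcm7, Uhrf1, Ect2 and Prc1 had 2 promoter windows each, so 23 windows come from 21 mitotic genes and 14 from 12 replication genes. CHR was found in 19 of 23 promoter windows of mitotic genes (82.6%) and in 2 of 14 of replication genes (14.3%). In all 32851 promoter windows of the table the share was 19.2%. By gene, CHR was found in 17 of 21 mitotic and 2 of 12 replication genes, and E2F in 1 and 7 of these. E2F was found in 7 of 14 replication promoters (50%), in 1 of 23 mitotic promoters (4.35%, that of Cdk1) and in 2.26% of all windows. CCAAT was frequent in both, in 91.3% of mitotic and 78.6% of replication promoters against 37.4% of all windows. Neither promoter of the G1/S regulators, Ccne1 and E2f1, held any of these letters. A match is a description of the letters and not evidence that a factor binds there. Only these exact letters were searched, so a missing match does not show that a promoter lacks a site.

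**Figure D1:**
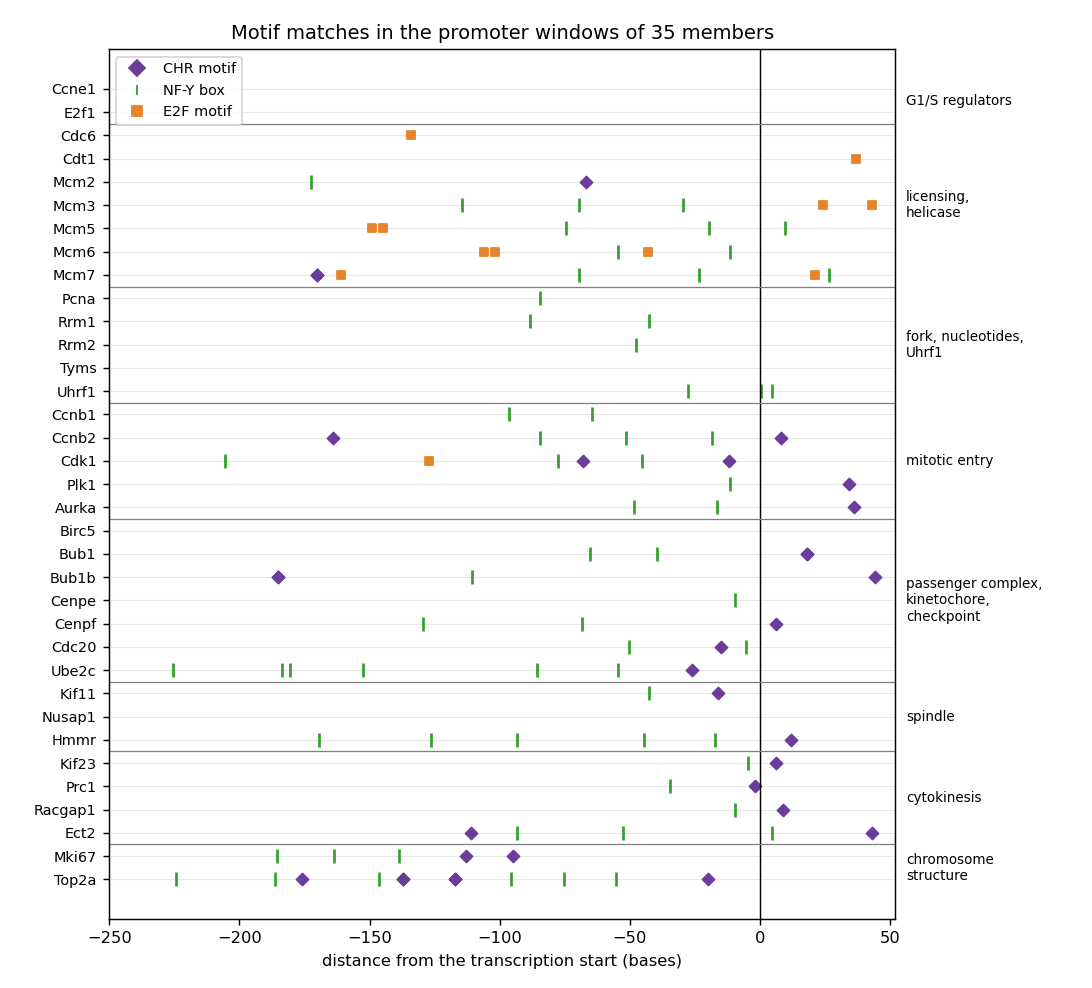
Position of each motif match in the promoter windows of 35 genes, in bases from the transcription start, 1 row per gene and grouped by role. Where a gene had more than 1 window, only the first listed is drawn. Diamonds are CHR, upright bars the NF-Y box and squares E2F, and CHR matches lie in most mitotic rows and in those of Mcm2 and Mcm7, and E2F matches in replication rows and that of Cdk1.

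Values below are scaled TPM, the deposited TPM divided by 1 factor per library, and values of 3 libraries are listed in the order 1, 2 and 3. Log2 differences compare group means after adding 1 to each scaled TPM, which shrinks the changes of low values, and limma gave the p-values, adjusted over all 13905 genes. Genes are called, or said to have risen or fallen, at an adjusted p below 0.05 together with a log2 difference of 1 or more in either direction. Before scaling, the median gene lay 1.11 apart between untreated biliary cells and hepatocytes, 1.06 between the same cell types under DDC, 0.71 between reprogrammed cells and DDC hepatocytes and 0.93 between reprogrammed cells and untreated hepatocytes. The shift was -0.34 between reprogrammed and DDC biliary cells and 0.17 in the DDC response of hepatocytes. Directions are therefore relative to the median gene after scaling. TPM keeps no read totals, so the depth behind each value is unknown, and a value of 0 means only that the gene is listed at 0. The RNA comes from many cells, in which fewer cycling cells and less of these RNAs per cell cannot be told apart.

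The labelled cell types were checked against their markers. The summed level of 7 hepatocyte markers was 138024 to 156272 scaled TPM in the hepatocytes of untreated mice and 72325 to 147960 in those of DDC mice. Reprogrammed cells had 22678 to 73820, the biliary cells of DDC mice 12868 to 29340 and those of untreated mice 28186 to 36495, so hepatocyte RNA was present in every group. The 7 biliary markers summed to 35.03 to 69.38, 351 to 666, 4532 to 10671, 8028 to 12860 and 10525 to 12153 in the same order, with Krt7 listed at 0 in all untreated hepatocytes. Of 8 macrophage markers the sum was 13.2 to 22.5 in untreated and 17.0 to 41.3 in DDC hepatocytes, and 62.4 to 88.3 in untreated and 32.4 to 82.6 in DDC biliary cells. Of 10 markers of other leukocytes it was 1.71 to 2.25 and 10.7 to 15.3 in these hepatocytes and 1.29 to 2.54 and 22.4 to 29.0 in these biliary cells, and 13.9 to 32.4 in reprogrammed cells. Mesothelial markers (Msln, Upk3b and Wt1) were listed at 0 in untreated hepatocytes and summed to 0.227 to 0.365 in DDC hepatocytes, 2.55 to 15.6 in untreated and 81.5 to 137 in DDC biliary cells, and 36.02 to 59.4 in reprogrammed cells. Of the 3 mesothelial markers only 1 had a mean of at least 1 in DDC biliary cells and only 1 in reprogrammed cells. Of the 10 markers of other leukocytes 2 reached that mean in each of these groups and 3 in DDC hepatocytes. These sums therefore rest on few genes. What other cell types, if present, contribute to the cell cycle genes was not tested.

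Libraries differed within their group along the number in their titles. Library 2 was the highest of its group for 41 of 43 genes in untreated hepatocytes and for 40 in untreated biliary cells. In the DDC groups library 2 was instead the lowest, for 40 of 43 genes in hepatocytes, 42 in reprogrammed cells and 38 in biliary cells. DDC hepatocyte library 2 stood apart most, since 86% of the 43 genes lay at least 1 on the log2 scale below the mean of its 2 neighbours, compared with 3.91% of all genes tested. Its 26 mitotic genes were all at least 1 lower, by a median of -3.21, while the 14 replication genes had a median of -1.53 and the 3 G1/S regulators one of 0.30. In untreated hepatocyte library 2, 60.5% of the genes were at least 1 higher than the mean of the other libraries, against 1.56% of all genes. Over all genes tested, DDC hepatocyte library 2 correlated at 0.944 and 0.967 with the other libraries of its group, and library 1 at 0.944 and 0.960.

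**Figure D2:**
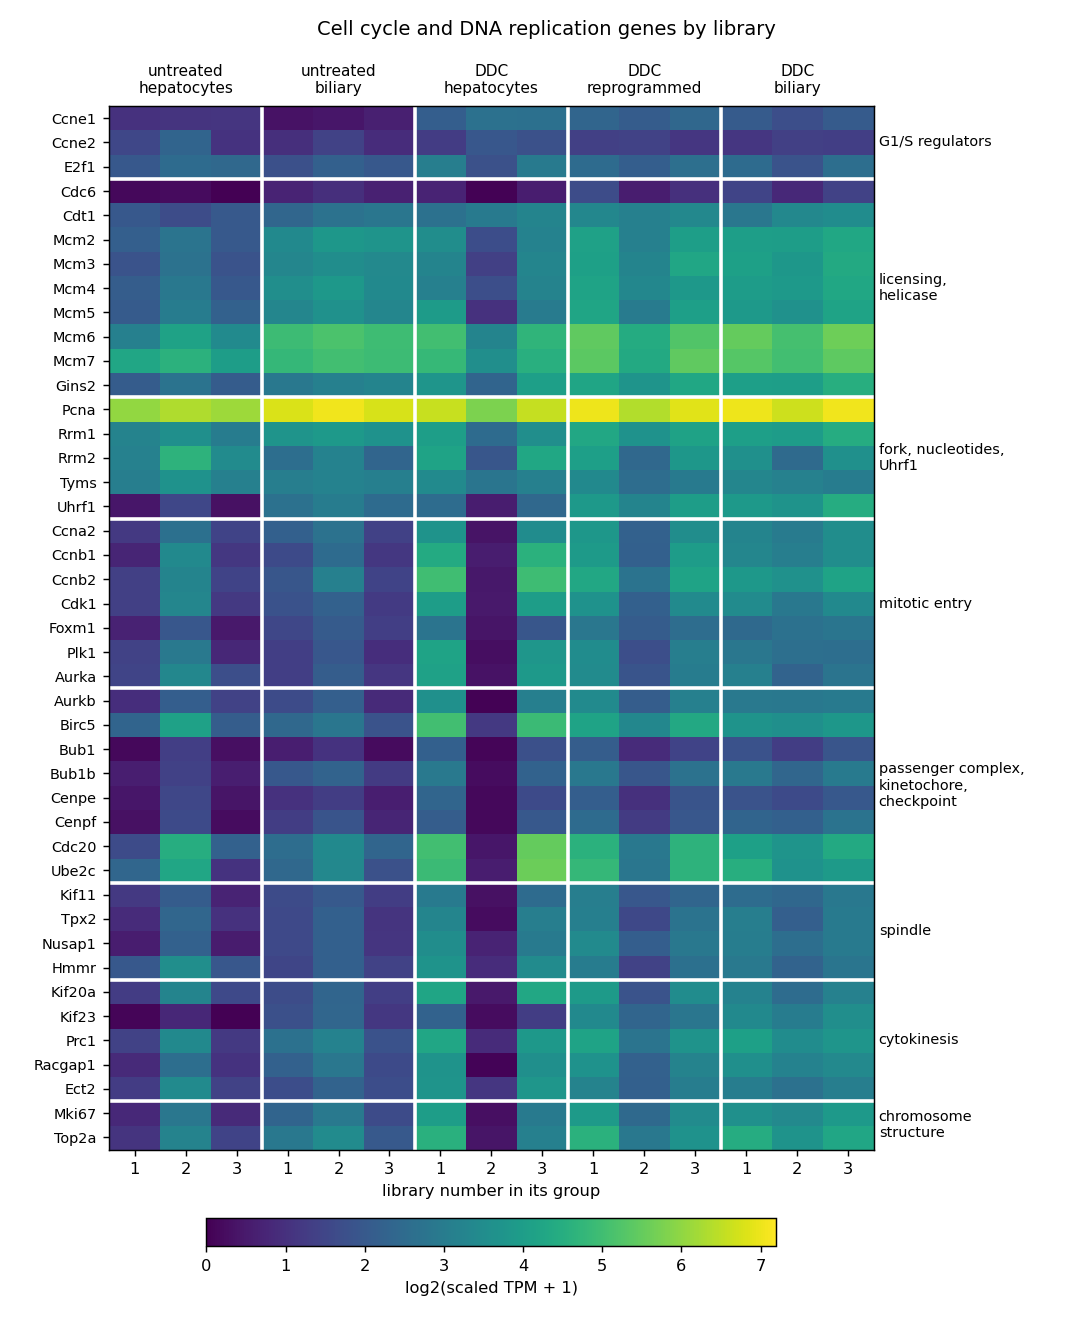
Level of the 43 genes in all 15 libraries, as log2(scaled TPM + 1), with columns by group and library number and rows by role. Library 2 of the DDC hepatocytes is dark for every mitotic gene, while library 2 of the untreated hepatocytes is the brightest of its group for 41 of 43 genes.

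The mean of log2(scaled TPM + 1) over the 26 mitotic genes was 1.10, 2.75 and 1.10 in untreated hepatocytes and 3.71, 0.44 and 3.40 in DDC hepatocytes. It was 1.82, 2.43 and 1.33 in untreated biliary cells, 3.21, 2.81 and 3.23 in those of DDC mice and 3.53, 2.12 and 3.18 in reprogrammed cells. DDC biliary cells were above untreated biliary cells without overlap, whereas DDC and untreated hepatocytes overlapped through library 2 of each. The same mean over the 14 replication genes was 2.56, 3.18 and 2.55 in untreated hepatocytes, 3.69, 2.25 and 3.56 in DDC hepatocytes and 3.44, 3.73 and 3.49 in untreated biliary cells. It was 4.08, 3.83 and 4.3 in DDC biliary cells and 4.24, 3.38 and 4.09 in reprogrammed cells. The libraries spread less for the replication than for the mitotic genes in every group but the DDC biliary cells, where the spreads were about equal.

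**Figure D3:**
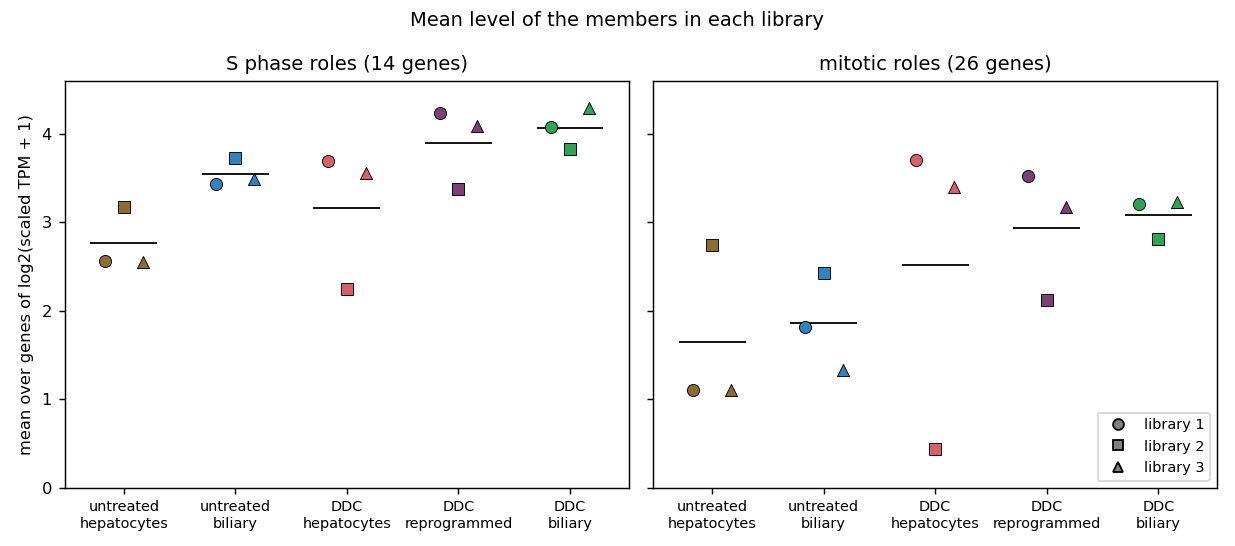
Mean of log2(scaled TPM + 1) over the 14 replication genes (left) and the 26 mitotic genes (right) in each library, with the marker shape giving the library number and the line the group mean. The mitotic mean of DDC hepatocyte library 2 is 0.44, below every other library, and those of the DDC biliary libraries lie between 2.81 and 3.23.

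Among the G1/S regulators, Ccne1 codes for cyclin E1, the partner of Cdk2 at S phase entry (chromosome 7, 38097984 to 38107534, GRCm38, protein-coding). It was 1.06, 1.12 and 1.18 in untreated hepatocytes and 3.41, 5.49 and 5.31 in DDC hepatocytes. It was 0.274, 0.359 and 0.541 in untreated and 3.15, 2.31 and 3.18 in DDC biliary cells, and 4.06, 3.28 and 4.32 in reprogrammed cells. All 9 DDC libraries lay above all 6 untreated ones, and DDC hepatocyte library 2, the lowest of its group for 40 genes, had the highest Ccne1 of all. Its relative Ccne2 was 1.88, 3.95 and 1.08 in untreated and 1.44, 2.91 and 2.44 in DDC hepatocytes, which overlapped and thus did not share the pattern of Ccne1. E2f1, a factor that activates replication genes, was 2.97, 4.72 and 4.36 in untreated and 7.52, 2.43 and 6.7 in DDC hepatocytes, again with overlap.

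Of the licensing genes, Cdt1 loads the helicase onto DNA (chromosome 8, 122568015 to 122573554) and was 2.94, 2.18 and 3.03 in untreated and 5.39, 6.75 and 8.55 in DDC hepatocytes. It was 4.24, 5.62 and 6.07 in untreated and 6.25, 9.28 and 10.4 in DDC biliary cells, and 9.06, 7.71 and 9.24 in reprogrammed cells. Cdt1 thus shared with Ccne1 a lack of overlap between untreated and DDC cells in both cell types, and DDC hepatocyte library 2 was not its lowest library. The loader Cdc6 was low everywhere, at 0.117, 0.168 and 0 in untreated hepatocytes and 2.18, 0.491 and 1.02 in reprogrammed cells.

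Mcm6, a subunit of the helicase (chromosome 1, 128331590 to 128359664), was 7.801, 16.7 and 9.897 in untreated hepatocytes and 29.6, 34.6 and 30.1 in untreated biliary cells. It was 31.4, 8.55 and 25.1 in DDC hepatocytes, 42.8, 20.4 and 36.7 in reprogrammed cells and 44.3, 32.8 and 47.6 in DDC biliary cells. Untreated biliary cells lay above untreated hepatocytes in every library, and the lowest value of the DDC groups was DDC hepatocyte library 2. Mcm4, another subunit (chromosome 16, 15623897 to 15637400), had the same order of group means, with 3.36, 6.35 and 2.94 in untreated hepatocytes, 10.8, 13.3 and 9.697 in untreated biliary cells and 7.86, 2.297 and 8.25 in DDC hepatocytes. It was 17.1, 9.13 and 13.4 in reprogrammed cells and 14.8, 13.5 and 18.7 in DDC biliary cells. In both genes reprogrammed and DDC biliary cells overlapped with each other. For Mcm3 the values were 2.59, 5.55 and 2.57 in untreated and 8.57, 1.596 and 8.61 in DDC hepatocytes and 16.1, 8.595 and 18.1 in reprogrammed cells. Mcm2 was 3.57, 5.79 and 3.02 in untreated hepatocytes and 9.77, 12.96 and 12.3 in untreated biliary cells, which did not overlap. Mcm5 was 3.2, 7.07 and 3.67 in untreated hepatocytes and 8.87, 11.4 and 8.89 in untreated biliary cells. Mcm7 was 18.3, 23.8 and 15.2 in the former and 26.9, 31.5 and 29.4 in the latter. The 6 helicase subunits Mcm2 to Mcm7 were thus each higher in all untreated biliary libraries than in any untreated hepatocyte library. The same held for 43% of all genes tested and for 30.2% of the 43 genes, so such a lack of overlap was common between these groups. Gins2, a subunit of the GINS complex that activates the helicase (chromosome 8, 120578633 to 120589304), was 3.31, 5.68 and 3.27 in untreated and 12.4, 3.96 and 15.6 in DDC hepatocytes. It was 6.43, 7.72 and 8.56 in untreated and 15.8, 15.3 and 22.02 in DDC biliary cells, without overlap there, and 17.7, 12.2 and 18.6 in reprogrammed cells.

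Of the fork genes, Pcna, the sliding clamp of the DNA polymerases, was the most abundant of the 43 in all 15 libraries, at 64.9, 79.6 and 69.2 in untreated hepatocytes and 111, 132 and 107 in untreated biliary cells. Under DDC it was 96.4, 53.7 and 94.7 in hepatocytes, 128, 82.5 and 116 in reprogrammed cells and 128, 99.2 and 132 in biliary cells. In DDC hepatocyte library 2 Pcna was the lowest of its group but still at 53.7. Uhrf1, which brings the methyltransferase Dnmt1 to newly copied DNA (chromosome 17, 56303321 to 56323486), was 0.347, 1.898 and 0.254 in untreated hepatocytes and 4.82, 0.495 and 4.4 in DDC hepatocytes. It was 5.41, 7.18 and 4.76 in untreated biliary cells, 13.9, 8.54 and 14.99 in reprogrammed cells and 13.8, 11.98 and 20.99 in DDC biliary cells. Reprogrammed cells and both biliary groups did not overlap with the hepatocytes of the same treatment.

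The 2 subunits of ribonucleotide reductase, which makes the DNA precursors, had opposite orders between the untreated cell types. Rrm2, the subunit made in S phase, was 7.91, 24.3 and 10.1 in untreated hepatocytes and 5.09, 8.21 and 4.13 in untreated biliary cells, so that here hepatocytes had the higher mean although the libraries overlapped. Its partner Rrm1 was 8.32, 11.04 and 7.14 in untreated hepatocytes and 12.2, 13.9 and 11.7 in untreated biliary cells, with every biliary library above. Tyms, thymidylate synthase, was 7.46, 11.6 and 7.75 in untreated hepatocytes, 7.42, 8.14 and 7.54 in untreated biliary cells and 9.82, 5.95 and 7.83 in DDC hepatocytes, and these groups overlapped.

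Among the genes of mitotic entry, Cdk1, the kinase that drives mitosis (chromosome 10, 69335146 to 69352938), was 1.57, 8.95 and 1.297 in untreated and 15.1, 0.416 and 15.01 in DDC hepatocytes. It was 2.497, 3.74 and 1.33 in untreated and 10.01, 6.305 and 9.62 in DDC biliary cells, and 11.7, 3.61 and 9.85 in reprogrammed cells. DDC hepatocyte libraries 1 and 3 were the highest of all 15, and library 2 was the lowest of all. Ccnb2, a cyclin partner of Cdk1, was 1.55, 8.55 and 1.75 in untreated and 30.97, 0.368 and 30.2 in DDC hepatocytes, 2.81, 7.72 and 1.75 in untreated and 13.4, 11.6 and 17.1 in DDC biliary cells and 18.8, 5.66 and 16.98 in reprogrammed cells. Ccnb1 followed it, at 20.2, 0.493 and 23.2 in DDC hepatocytes. The FoxM1 factor gene was 0.609, 2.897 and 0.411 in untreated hepatocytes and 6.197, 3.29 and 4.95 in reprogrammed cells, without overlap.

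Cdc20 and Ube2c code for the activator and the ubiquitin-conjugating enzyme of the complex that releases cells from the spindle checkpoint. They had the highest group means of the mitotic genes in DDC hepatocytes and reprogrammed cells, though not the highest values in every library. Cdc20 was 2.16, 21.2 and 3.68 in untreated hepatocytes, 31.4, 0.354 and 44.6 in DDC hepatocytes, 4.91, 9.67 and 4.04 in untreated biliary cells and 15.96, 12.2 and 19.8 in DDC biliary cells. Ube2c was 4.15, 18.2 and 1.08 in untreated and 29.2, 0.503 and 47.1 in DDC hepatocytes, and 4.43, 9.35 and 2.47 in untreated and 21.7, 11.7 and 14.03 in DDC biliary cells. Biliary cells of the 2 treatments did not overlap for either gene, while hepatocytes did. Birc5 (survivin, of the chromosomal passenger complex) was 31.2, 1.298 and 29.01 in DDC hepatocytes and 11.9, 11.1 and 13.2 in DDC biliary cells. Bub1b, a checkpoint kinase homologue, was 0.528, 1.61 and 0.519 in untreated hepatocytes and 6.32, 2.81 and 5.58 in reprogrammed cells, without overlap.

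Of the spindle genes, Nusap1 was 0.481, 3.69 and 0.476 in untreated hepatocytes and 9.996, 3.46 and 6.41 in reprogrammed cells. Hmmr, a spindle protein that also binds hyaluronan, was 2.98, 10.8 and 2.897 in untreated hepatocytes and 1.81, 3.61 and 1.68 in untreated biliary cells, the reverse order of means to Nusap1. Mki67, the coat protein of mitotic chromosomes used as a proliferation marker, was 0.765, 6.304 and 0.796 in untreated and 15.2, 0.221 and 6.67 in DDC hepatocytes. It was 3.98, 6.59 and 2.14 in untreated and 11.2, 9.48 and 13.7 in DDC biliary cells, and 14.2, 4.46 and 10.1 in reprogrammed cells. Top2a, the topoisomerase that untangles chromosomes, was 6.33, 10.1 and 3.05 in untreated and 20.9, 11.96 and 18.4 in DDC biliary cells, which did not overlap.

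Kif23 had the largest difference of the 26 mitotic genes between biliary cells and hepatocytes, untreated and under DDC. It codes for MKLP1, the kinesin that with Racgap1 forms the centralspindlin complex of the cleavage furrow (chromosome 9, 61915905 to 61946774). Kif23 was 0.0631, 0.731 and 0 in untreated and 3.798, 0.171 and 1.47 in DDC hepatocytes, listed at 0 in untreated library 3. It was 2.38, 4.23 and 1.23 in untreated biliary cells, 9.72, 4.05 and 6.12 in reprogrammed cells and 9.62, 7.15 and 10.8 in DDC biliary cells. Its partner Racgap1 (chromosome 15, 99620496 to 99651656) was 0.823, 5.07 and 1.08 in untreated and 11.97, 0.0507 and 11 in DDC hepatocytes, 3.67, 6.21 and 2.07 in untreated biliary cells, 11.7, 3.73 and 8.305 in reprogrammed cells and 10.96, 8.05 and 9.41 in DDC biliary cells. In DDC hepatocyte libraries 1 and 3 Racgap1 thus lay slightly above all DDC biliary libraries while Kif23 stayed below them.

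Within a library, where scaling has no part, the level of Kif23 per length was 7.67%, 14.4% and 0% of that of Racgap1 in untreated hepatocytes. In DDC hepatocytes it was 31.7% and 13.3% in libraries 1 and 3. Library 2 gave 338%, but from levels of 0.171 and 0.0507, so no weight rests on it. The share was 59.3% to 68.2% in untreated biliary cells, 73.7% to 108% in reprogrammed cells and 87.8% to 115% in DDC biliary cells. Against Prc1, the bundler of the central spindle, Kif23 was 0% to 7.6% in untreated hepatocytes, 11.1% to 20.9% in DDC hepatocytes with library 2 included, 43.8% to 51.7% in untreated biliary cells, 50.7% to 70% in reprogrammed cells and 59.6% to 87.4% in DDC biliary cells. Against Prc1 every hepatocyte library lay below all biliary and reprogrammed libraries. Against Racgap1 all but DDC hepatocyte library 2 did, which lay above them. Kif23 was also near 0 in untreated hepatocyte libraries 1 and 3, at 0.063 and 0, so their shares are imprecise too. Uhrf1 had a like order against Mcm6, at 2.56% to 11.4% in untreated hepatocytes and 5.79% to 17.5% in DDC hepatocytes. It was 15.8% to 20.8% in untreated biliary cells, 32.4% to 42% in reprogrammed cells and 31.2% to 44.1% in DDC biliary cells, so that hepatocytes did not overlap with the other cells of the same treatment. These ratios were chosen after the values were seen and were not tested.

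**Figure D4:**
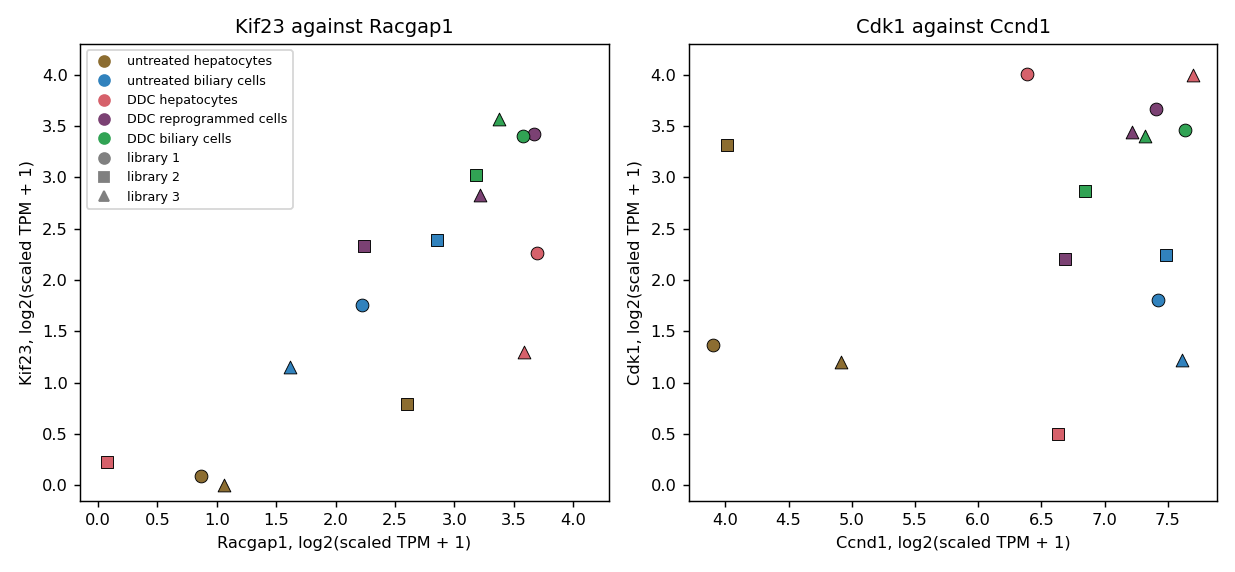
Kif23 against its partner Racgap1 (left) and Cdk1 against the cyclin D1 gene Ccnd1 (right) in each library, both axes as log2(scaled TPM + 1), with colour for the group and marker shape for the library number. Left, DDC hepatocyte libraries 1 and 3 lie to the right at a low Kif23; right, DDC hepatocyte library 2 has a Ccnd1 level of 98.0 and a Cdk1 level of 0.416.

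The first comparison asked how hepatocytes of DDC mice differed from untreated hepatocytes. Ccne1 (log2 difference 1.41, SE 0.17, adjusted p = 5.4e-05), Cdt1 (log2 difference 1.07, SE 0.20, adjusted p = 0.00155) and Gins2 (log2 difference 1.06, SE 0.37, adjusted p = 0.0472) rose, 3 of the 43 genes, and none fell. Of all genes tested 6.59% rose and 4.42% fell. The groups did not overlap for Ccne1 and Cdt1, and 20.4% of all genes lay higher without overlap. For Gins2 they overlapped, and its call depended on the fit. With only the compared groups in the fit, Ccne1 and Cdt1 were called but Gins2 was not, with 5.06% of all genes called higher. Gins2 also lost its call without library 1 or library 3 of either group. No mitotic gene passed the test. Ccnb2 had the largest difference among them (log2 difference 1.45, SE 1.01, adjusted p = 0.321), Ube2c followed a similar pattern (log2 difference 1.14, SE 1.13, adjusted p = 0.508) and Mki67 was at log2 difference 0.90, SE 0.81, adjusted p = 0.455. The median over the 43 genes was 0.76, against 0.01 over all genes. This picture rests on single libraries. The median was 0.19 without DDC hepatocyte library 1 and 0.32 without library 3, and 0.01 and 0.13 without all libraries numbered 1 or 3. Without DDC hepatocyte library 3, 1 gene was called. Without DDC hepatocyte library 2, 29 of the 43 genes were called higher, 22 of them mitotic, with a median of 1.49 and 7.31% of all genes called higher. Without library 2 of every group, 34 were called, all 26 mitotic genes among them, with 6.95% of all genes called higher, while Cdt1 was not called at a difference of 0.97. Library 2 stood out by these same genes, high in untreated and low in DDC hepatocytes. Higher counts without it follow from leaving it out and are no separate support. The same limit applies below wherever library 2 is left out. The sign of Mki67 turned to -0.24 without the libraries numbered 1 and that of Ube2c to -0.56 without those numbered 3.

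In DDC biliary cells against untreated biliary cells the mitotic genes lay higher in nearly every library. Ccne1 (log2 difference 1.48, SE 0.17, adjusted p = 3.85e-05), Gins2 (log2 difference 1.12, SE 0.37, adjusted p = 0.0398) and Kif23 (log2 difference 1.57, SE 0.47, adjusted p = 0.0261) rose and none fell, in a comparison in which 5.68% of all genes rose and 4.74% fell. The 3 DDC libraries lay above the 3 untreated ones for 35 of 43 genes (81.4%), against 24.3% of all genes. These were 25 of the 26 mitotic genes, 9 of the 14 replication genes and Ccne1. The median difference was 1.11 over the 43 genes and -0.02 over all genes. Ccnb2 (log2 difference 1.72, SE 1.01, adjusted p = 0.231), Mki67 (log2 difference 1.32, SE 0.81, adjusted p = 0.251) and Top2a (log2 difference 1.35, SE 0.88, adjusted p = 0.281) did not pass in the fit that shares 1 spread per gene over the 5 groups. With only the compared groups in the fit, where hepatocytes and reprogrammed cells have no part in the spread, 24 of the 43 genes rose. Of these 21 were mitotic, and 6.13% of all genes were called higher. Which of the groups left out changed the count was not tested. Without the libraries numbered 2, left out after these genes were seen, 30 were called, all 26 mitotic genes among them, with 5.5% of all genes called higher. Without any 1 of libraries 1 and 3 of either group, 1 was called. Cdt1 passed the adjusted p with a difference under 1 in size (log2 difference 0.60, SE 0.20, adjusted p = 0.0416). The summed markers of other leukocytes were 1.29 to 2.54 in untreated and 22.4 to 29.0 in DDC biliary cells. The summed mesothelial markers were 2.55 to 15.6 and 81.5 to 137 in these groups, and the part of either in the difference was not tested.

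The difference between the DDC responses of biliary cells and hepatocytes was tested as an interaction. None of the 43 genes passed in either direction by limma, and none had an unadjusted p under 0.05, with a lowest adjusted p of 0.332. Of all genes 3.46% were higher and 4.94% lower. The median of the 43 genes was 0.26, and it was -0.50 without DDC hepatocyte library 2 and -0.13 without untreated hepatocyte library 2. Leaving out the libraries numbered 2 turned it to -0.57, and Ccnb1, Ccnb2, Cdc20 and Ect2 were then called lower, meaning a smaller DDC difference in biliary cells than in hepatocytes. In that setting 3.03% of all genes were called lower. The sign of the median thus rests on library 2, and here and in the comparisons that follow a missed threshold does not show that levels are alike.

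**Figure D5:**
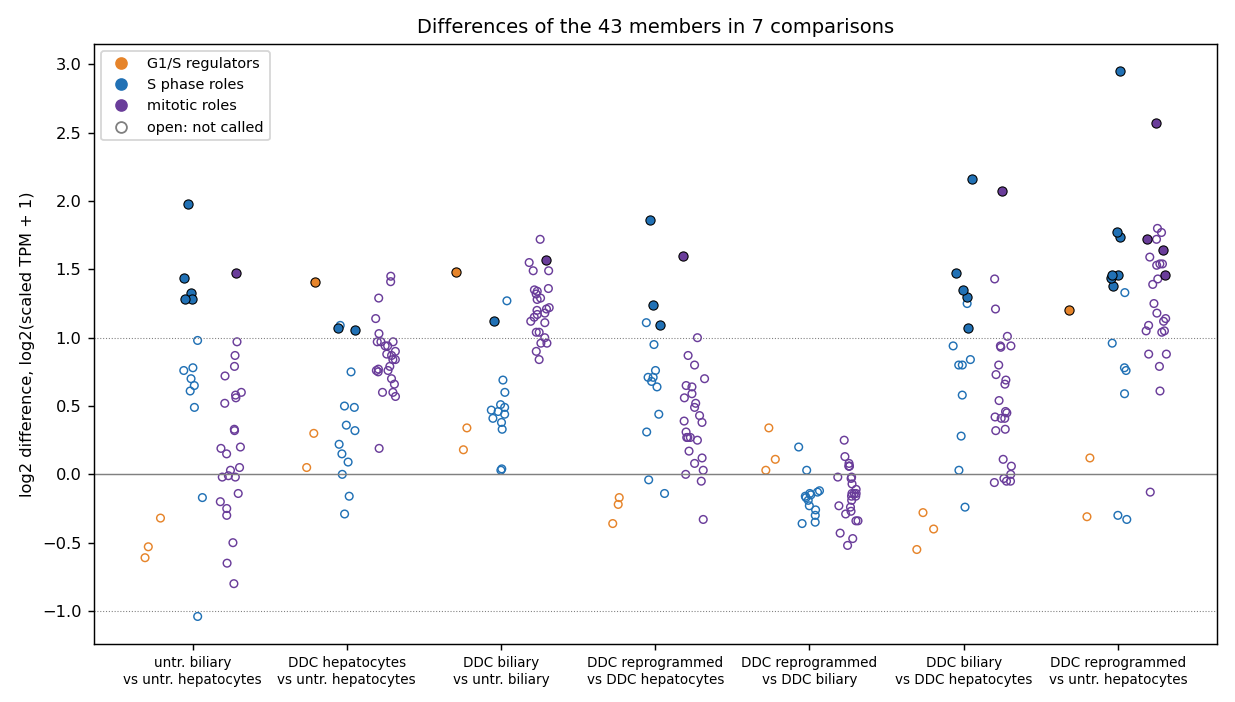
Log2 difference of each of the 43 genes in 7 comparisons, coloured by role, with filled points for called genes, open points for the others and dotted lines at a difference of 1 in size. Points of Uhrf1 and Kif23 are the highest called ones between biliary or reprogrammed cells and hepatocytes, and no point is called between reprogrammed and DDC biliary cells.

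In untreated mice, biliary cells had more RNA of helicase subunits, Uhrf1 and Kif23 than hepatocytes. Mcm2 (log2 difference 1.33, SE 0.40, adjusted p = 0.0104), Mcm3 (log2 difference 1.28, SE 0.45, adjusted p = 0.0219), Mcm4 (log2 difference 1.28, SE 0.37, adjusted p = 0.00778) and Mcm6 (log2 difference 1.44, SE 0.41, adjusted p = 0.00733) were higher, as were Uhrf1 (log2 difference 1.98, SE 0.47, adjusted p = 0.0024) and Kif23 (log2 difference 1.47, SE 0.47, adjusted p = 0.0134). These are 6 of 43 genes, and none was lower. Of all genes 21.6% were higher and 15.6% lower, so the share of these genes called was below the background. Biliary libraries lay above hepatocyte libraries for 12 of the 14 replication genes and for 1 of the 26 mitotic genes, Kif23, compared with 43% of all genes. Ccne1 lay lower without overlap (adjusted p = 0.0053) but by only -0.61. With the library number as a block within untreated mice, Rrm2 was called lower. In the fit without it Rrm2 (log2 difference -1.04, SE 0.64, adjusted p = 0.168) and Racgap1 (log2 difference 0.72, SE 0.81, adjusted p = 0.449) did not pass. The median of the 43 genes was 0.33, and it was 1.08 in TPM as deposited, where that of all genes was 1.11, and -0.65 after quantile normalization. The differences of the 6 genes kept their sign in each scaling, but 14 genes were called higher in TPM as deposited, and after quantile normalization 2 were higher, of which Mcm6 alone was among the 6, and 5 lower. Without the libraries numbered 3 only Uhrf1 was called, without those numbered 1 Mcm2, Uhrf1 and Kif23 were, and without untreated biliary library 2 neither Mcm3 nor Kif23 was.

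The same 6 genes were called between the 2 cell types under DDC. In DDC biliary cells against DDC hepatocytes Mcm2, Mcm3, Mcm4 and Mcm6 were higher by 1.30, 1.47, 1.35 and 1.07 on the log2 scale. Uhrf1 (log2 difference 2.16, SE 0.47, adjusted p = 0.0014) and Kif23 (log2 difference 2.07, SE 0.47, adjusted p = 0.00171) were higher by more. These 6 of 43 were called in a comparison in which 20.2% of all genes were higher and 14.4% lower, and none of the 43 was lower. The share of these genes called was thus below the background. The groups did not overlap for 10 genes that were higher (23.3%), against 36.4% of all genes, and for Ccne1, which was lower by a difference under 1 in size (log2 difference -0.55, SE 0.17, adjusted p = 0.0104) and turned to 0.32 in TPM as deposited. Without DDC hepatocyte library 2 only Uhrf1 and Kif23 were called higher and Birc5 was called lower, against 20.4% and 14.7% of all genes. Without the libraries numbered 2 of every group, Ccnb1, Plk1, Aurka, Birc5, Cdc20 and Kif20a were called lower in biliary cells, all mitotic, beside the same 2 that were higher. In that setting 14.8% of all genes were called lower and 20.7% higher, so the share of the 43 genes called lower was not above the background. The median of the 43 genes was 0.58, against 0.14 over all genes, and -0.25 without DDC hepatocyte library 2. Without DDC hepatocyte library 1 the genes called higher were 14, with 21.5% of all genes called higher. Racgap1 (log2 difference 0.93, SE 0.81, adjusted p = 0.329) turned to -0.26 without DDC hepatocyte library 2.

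Reprogrammed cells were next compared with the hepatocytes of DDC mice. Uhrf1 (log2 difference 1.86, SE 0.47, adjusted p = 0.00619), Kif23 (log2 difference 1.60, SE 0.47, adjusted p = 0.0132), Mcm3 (log2 difference 1.24, SE 0.45, adjusted p = 0.0362) and Mcm4 (log2 difference 1.09, SE 0.37, adjusted p = 0.0266) were higher, 4 of 43, and none was lower, where 13.7% of all genes were higher and 5.77% lower. The groups did not overlap for Mcm4, Uhrf1 and Kif23, against 28.2% of all genes. The median was 0.44 over the 43 genes and 0.06 over all genes. It was 1.04 in TPM as deposited, where all genes had 0.71, and 0.04 after quantile normalization. Mki67 (log2 difference 0.87, SE 0.81, adjusted p = 0.4) and Racgap1 (log2 difference 0.59, SE 0.81, adjusted p = 0.574) did not pass and turned to -0.20 and -0.60 without DDC hepatocyte library 2, when Uhrf1 alone was called and the median was -0.30. Without DDC hepatocyte library 1 the called genes were 9, without reprogrammed library 1 there was 1 and without reprogrammed library 3 there were 2.

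Differences were also taken within each library number. The median difference of the 26 mitotic genes, reprogrammed cells minus DDC hepatocytes, was -0.14 for number 1, 1.69 for number 2 and -0.33 for number 3. For DDC biliary cells minus DDC hepatocytes it was -0.47, 2.36 and -0.15. The replication genes kept 1 sign, at 0.52, 1.17 and 0.56 in the first and 0.44, 1.60 and 0.89 in the second case. So in numbers 1 and 3 mitotic genes were at or slightly below the hepatocyte level while replication genes were above it. The summed hepatocyte markers were highest in library 2 among the reprogrammed and among the DDC biliary libraries, at 73820 and 29340, where the cell cycle genes were lowest. In DDC hepatocytes library 2 had 136048, and libraries 1 and 3 had 72325 and 147960, so the markers did not follow the cell cycle genes there. The part of hepatocyte RNA in these differences was not tested.

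Reprogrammed cells and DDC biliary cells were not distinguished by any of the 43 genes. None was called higher or lower by limma, none had an unadjusted p under 0.05, and the lowest adjusted p was 0.19, for Ccne1. Among all genes tested, reprogrammed cells had 2.78% higher and 0.734% lower. Differences ran from -0.52 for Cenpf to 0.34 for Ccne1, with a median of -0.14, which was 0.16 without reprogrammed library 2. Within library numbers 1, 2 and 3 the median was 0.22, -0.61 and -0.13, with 39 genes higher in number 1 and 40 lower in number 2. Only Ccne1 lay higher in all reprogrammed libraries, compared with 14.7% of all genes.

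Against untreated hepatocytes, where both the diet and the cell type differ, reprogrammed cells had the most calls. The 12 genes that were higher were Ccne1 (log2 difference 1.20, SE 0.17, adjusted p = 3.89e-05), 7 replication genes and 4 mitotic genes, and none was lower. Of all genes 20.6% were higher and 12.5% lower. The replication genes were Cdt1 (log2 difference 1.38, SE 0.20, adjusted p = 5.39e-05), Mcm2, Mcm3, Mcm4, Mcm6, Gins2 and Uhrf1, of which Uhrf1 had the largest difference of the 43 (log2 difference 2.95, SE 0.47, adjusted p = 0.000138). The mitotic genes were Kif23 (log2 difference 2.57, SE 0.47, adjusted p = 0.000363), Nusap1 (log2 difference 1.72, SE 0.65, adjusted p = 0.0343), Bub1b (log2 difference 1.64, SE 0.55, adjusted p = 0.0197) and Foxm1 (log2 difference 1.46, SE 0.51, adjusted p = 0.0241). Groups did not overlap for 14 genes, or 32.6%, against 38.1% of all genes. Mki67 did not pass (log2 difference 1.77, SE 0.81, adjusted p = 0.0727). The median was 1.25 over the 43 genes and 0.10 over all genes, and 0.65 after quantile normalization. Without the libraries numbered 2, 37 genes were called, 25 of them mitotic, with 22.4% of all genes called higher. Without those numbered 1, or those numbered 3, 5 were called, with 19.4% and 19.2% of all genes called higher.

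Other genes of the cycle come from lists of 31 replication genes, 46 mitotic genes, 25 genes of G1 entry and the RB, E2F and MuvB machinery, and 8 inhibitors. In the DDC response of biliary cells 1 of the 46 mitotic genes, the centromere gene Cenpm, rose and none fell, with a median of 0.95, and 39 of the 46 lay higher without overlap, against 5.68% of all genes that rose and 24.3% that lay higher. In that of hepatocytes the same 1 of 46 rose and none fell, with a median of 0.70, and none lay higher without overlap, against 6.59% and 20.4% of all genes. These counts resemble those of the 26 mitotic genes above. All 46 were lowest in DDC hepatocyte library 2 within their group, as were 4547 of all 13905 genes. Of the 31 replication genes Chaf1a and Lig1 rose and Mcm10 fell in DDC hepatocytes, and Chaf1b and Dbf4 rose and none fell in DDC biliary cells. Between untreated biliary cells and hepatocytes 6 were higher and 3 lower, against 21.6% and 15.6% of all genes. Between reprogrammed cells and DDC hepatocytes Chaf1b, Pola1 and Pold1 were higher and none lower, against 13.7% and 5.77% of all genes.

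Values are given for called genes of these lists that reached 5 scaled TPM in the higher group and whose groups did not overlap. Chaf1a and Chaf1b code for subunits of the chromatin assembly factor that works behind the fork. Chaf1a rose in DDC hepatocytes, from 1.64, 2.75 and 1.53 to 6.04, 4.28 and 5.62 (log2 difference 1.10, SE 0.22, adjusted p = 0.00243). Chaf1b rose in DDC biliary cells from 4.29, 5.45 and 5.57 to 10.97, 13.9 and 13.9 (log2 difference 1.19, SE 0.22, adjusted p = 0.00145) and was higher in reprogrammed cells, at 11.4, 9.54 and 12.8, than in DDC hepatocytes, at 4.49, 2.16 and 4.299 (log2 difference 1.43, SE 0.22, adjusted p = 0.000189). Lig1, the ligase of Okazaki fragments, was 2.51, 6.28 and 2.81 in untreated hepatocytes and 15.2, 18.3 and 18.2 in untreated biliary cells, higher in the latter (log2 difference 1.98, SE 0.32, adjusted p = 0.000127). The opposite order was that of Tk1, thymidine kinase, which was 54.4, 48.1 and 34.3 in untreated hepatocytes and 14.9, 13.8 and 8.91 in untreated biliary cells (log2 difference -1.79, SE 0.24, adjusted p = 2.34e-05). Mcm10, a scaffold of helicase activation, fell in DDC hepatocytes from 22.9, 21.4 and 15.1 to 3.67, 2.44 and 2.67 (log2 difference -2.40, SE 0.19, adjusted p = 1.98e-06), opposite to Gins2.

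Cyclin D1 and Myc, which act before S phase, were not low in DDC hepatocyte library 2. Ccnd1, which codes for cyclin D1 and answers to growth signals, was 13.96, 15.1 and 29.1 in untreated and 82.8, 97.95 and 207 in DDC hepatocytes (log2 difference 2.63, SE 0.35, adjusted p = 0.000134). Myc, a growth factor-induced transcription factor, was 5.32, 5.26 and 4.24 in untreated and 38.8, 36.7 and 23.8 in DDC hepatocytes (log2 difference 2.50, SE 0.21, adjusted p = 2.84e-06). Library 2 lay between the other DDC hepatocyte libraries for both, while its Cdk1 was 0.416. They were the 2 of 25 genes of their list that rose in DDC hepatocytes, and none fell, where 6.59% of all genes rose and 4.42% fell. Ccnd1 was 171, 178 and 195 in untreated and 198, 114 and 158 in DDC biliary cells, with no call. Ccnd2, another D-type cyclin gene, was 0.127, 0.08696 and 0.175 in untreated hepatocytes and 31.7, 40.4 and 38.5 in untreated biliary cells (log2 difference 5.06, SE 0.37, adjusted p = 1.22e-07). Under DDC it was 0.682, 0.0984 and 0.333 in hepatocytes and 41.8, 13.4 and 15.7 in reprogrammed cells (log2 difference 4.01, SE 0.37, adjusted p = 2.51e-06). Their kinase Cdk4 was 50.6, 35.5 and 42.3 in DDC hepatocytes and 126, 68.3 and 115 in reprogrammed cells (log2 difference 1.22, SE 0.20, adjusted p = 0.000347).

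Of the 8 inhibitors, 2 were called higher in DDC than in untreated biliary cells, Cdkn2a at 13.2, 6.86 and 10.8, against 0.0574, 0 and 0.1396 and Cdkn2b at 19.8, 20.8 and 27.1 against 1.57, 0.893 and 1.14, where 5.68% of all genes rose. In DDC hepatocytes Cdkn1c and Cdkn2c were called higher and Cdkn1a lower, named here after their values were seen, where 6.59% of all genes rose and 4.42% fell.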

How the data were processed

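RNA of sorted mouse liver cells was extracted with the RNeasy micro kit, per the labels' protocols. Salmon and the genome mm10 are named in the submitters' processing notes, without a version. The authors deposited one gene table of TPM for all 15 libraries, in which each library sums to 1000000. TPM is not a count, so no count test was run and depth is unknown.

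Each library was divided by a median-ratio factor from 11924 genes, log2(scaled TPM + 1) was taken, and 13905 of 24493 genes with a TPM of at least 1 in at least 3 libraries were kept. limma 3.58.1 in R 4.3.3, with a mean-variance trend, was fitted on all 5 groups, with Benjamini-Hochberg adjustment over all genes. The code was tested on simulated data. Python 3.11.15, pandas 2.3.3, numpy 2.4.6 and matplotlib 3.10.9 were used for values and figures. Gene positions are from GENCODE M21 (GRCm38) and promoters from RefSeq (GRCm38.p6).

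The 43 genes and the other lists (replication, mitosis, G1 entry, inhibitors and cell type markers) were chosen with earlier results of these data known. Values were printed for the most abundant genes of each role, for those called where at most 5 were called, and for those that differed from their role. Numbers in the titles paired the libraries where every same-numbered pair correlated over 0.1 in its deviations from the group means over all genes. This held for untreated hepatocytes with untreated biliary cells (0.150, 0.171 and 0.236), for reprogrammed cells with DDC hepatocytes (0.449, 0.401 and 0.136) and with DDC biliary cells (0.410, 0.456 and 0.208), but not for DDC hepatocytes with DDC biliary cells or between treatments. The alternatives were other scalings, pseudocounts and filters, fits on the compared groups, a replicate block, the adjusted p alone, no trend and leaving out libraries. Leaving out all libraries of a number was chosen after seeing the data.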

Additional observations from a re-analysis of the deposited data

Results flagged for a closer look

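None of the 43 genes had a DDC response that differed between biliary cells and hepatocytes by limma, in an interaction tested over all 13905 genes. Of the 110 genes of the 4 other cell cycle lists 4 had a higher (3.64%) and 3 a lower response (2.73%) in biliary cells, against 3.46% and 4.94% of all genes. The proto-oncogene Mycn had a mean of 0.965 ± 0.433 scaled TPM in untreated and 0.176 ± 0.152 in DDC hepatocytes, and of 0.274 ± 0.154 in untreated and 4.82 ± 0.472 in DDC biliary cells (SD, n = 3). Its response was 2.20 in biliary cells and -0.73 in hepatocytes, a difference of 2.92 (SE 0.24, adjusted p = 1.1e-05). Myc went the other way, with 2.50 in hepatocytes and 0.31 in biliary cells, a difference of -2.19 (SE 0.29, adjusted p = 0.000338). Ccnd1 moved with Myc, from 19.4 ± 8.45 to 129 ± 67.9 in hepatocytes against 181 ± 12.4 and 157 ± 41.8 in biliary cells, a difference of -2.87 (SE 0.49, adjusted p = 0.00197).

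Mcm10 fell in hepatocytes by 2.40 and had a response of -0.38 in biliary cells, where it was already at 3.69 ± 0.972 in untreated mice, a difference of 2.02 (SE 0.27, adjusted p = 0.000341). The inhibitor genes Cdkn2a and Cdkn2b, which are neighbours in the genome, responded by 3.36 and 3.42 in biliary cells and by 0.09 and 0.80 in hepatocytes. The differences were 3.27 (SE 0.30, adjusted p = 2.05e-05) for Cdkn2a, which was listed at 0 in all untreated hepatocyte libraries, and 2.62 (SE 0.48, adjusted p = 0.00309) for Cdkn2b. Cdkn1c, the gene of the inhibitor p57, responded by 1.64 in hepatocytes and -0.14 in biliary cells, a difference of -1.78 (SE 0.22, adjusted p = 0.000173).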

How the results depend on the processing

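TPM holds no read totals, so counting error could not be separated from other spread, and with 3 libraries a group the calls on these genes rest on few values. With 1 library, or all libraries of 1 number, left out, the genes of the 43 called higher ranged from 1 to 9 between untreated biliary cells and hepatocytes, 1 to 34 in the DDC response of hepatocytes, 1 to 30 in that of biliary cells, 0 to 9 between reprogrammed cells and DDC hepatocytes, 5 to 37 between reprogrammed cells and untreated hepatocytes and 2 to 14 between DDC biliary cells and hepatocytes. In the last of these 0 to 6 were lower, and the interaction had 0 to 4 lower. Between reprogrammed and DDC biliary cells none was called under any setting.

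TPM as deposited gave 14 higher genes between untreated cell types, 13 between reprogrammed cells and DDC hepatocytes, 33 against untreated hepatocytes and 22 between DDC cell types. In these comparisons the median of all genes in TPM as deposited was itself 1.11, 0.71, 0.93 and 1.06, so the counts carry a shift of genes at large. Quantile normalization gave 2 higher and 5 lower genes between untreated cell types, 0 higher in the DDC response of hepatocytes, 1 higher and 1 lower between reprogrammed cells and DDC hepatocytes, 6 higher and 1 lower against untreated hepatocytes and 3 lower between DDC cell types. A pseudocount of 5 gave 1, 0, 0, 1, 5 and 2 higher genes in the 6 comparisons as listed first. A pseudocount of 0.1 gave 1 lower gene between untreated cell types and 1 higher in the DDC response of biliary cells. Fits on the compared groups gave 2 higher genes in the DDC response of hepatocytes (5.06% of all genes) and 24 in that of biliary cells (6.13%). They gave 1 between reprogrammed cells and DDC hepatocytes (12.9%), 14 against untreated hepatocytes (20.5%) and 3 between DDC cell types (19.8%). The adjusted p alone gave 1 lower gene between untreated cell types and 10 higher and 1 lower between DDC cell types. Except for the fits on the compared groups, no share of all genes stands beside these counts, so they show only how calls moved with the setting. The cause was not tested.

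The replicate block over all samples left every count as it was, from 6 between untreated cell types to 12 between reprogrammed cells and untreated hepatocytes. Within treatment, where numbers paired the libraries, the block gave 6 higher and 1 lower gene (Rrm2) between untreated cell types, 4 higher between reprogrammed cells and DDC hepatocytes and 0 between reprogrammed and DDC biliary cells. Between DDC cell types, where not every number paired, it gave 8 higher. Of the genes printed with a test it changed no other call.

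Single genes changed sign in 12 cases. Between untreated cell types Rrm2 turned to 0.09 in TPM as deposited and Racgap1 to -0.33 after quantile normalization. In the DDC response of hepatocytes, with libraries of 1 number left out, Ube2c ran from -0.56 to 3.54 and Mki67 from -0.24 to 2.65. In that of biliary cells Cdkn1c ran from -0.26 to 0.08 and was 0.00 without untreated biliary library 3. Between reprogrammed cells and DDC hepatocytes Racgap1 ran from -0.60 to 1.22 and was -0.20 without the libraries numbered 2, and Mki67 ran from -0.20 to 1.67. Between DDC cell types Ccne1 was 0.32 in TPM as deposited, and Racgap1 ran from -0.26, without DDC hepatocyte library 2, to 1.55 and was -0.16 without the libraries numbered 2. Of the other values of single genes, 1552 kept their direction and call, 196 lost the call and 28 gained one in the same direction.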
